A study of Drosophila melanogaster with 4 samples.

Results

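Arm 3R, the right arm of chromosome 3, is the longest euchromatic arm of the Drosophila melanogaster genome and carries both Hox gene complexes. Regions enriched for the linker histone H1 in its interior were examined here. The interior was taken as 3R from 1000001 to 26900000 in the coordinates of FlyBase release 5, which leaves out roughly 1 Mb at the centromere end and 1 Mb at the telomere end. Enriched regions, called clusters, were taken by their position in that window, whatever their length or score. The combined list of the replicate set placed 3358 of its 15736 clusters in this window (21.3%), out of 3587 on the whole arm. Replicate 1 placed 718 of 2771 there and replicate 2 placed 495 of 2922.

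Chromatin immunoprecipitation with an H1 antibody was followed by sequencing in head nuclei of Oregon-R flies, a laboratory strain labelled as wild type and as mixed adults in every sample, with no treatment given. The series holds 2 H1 ChIP samples and 2 input samples, and each input sample is tied by its label to the list of the ChIP sample with its number. Nothing in the labels ties the replicates to separate fly collections, and the spread between them may be technical. The heads were sieved from whole adults and hold neurons, glia and other cells, which a cluster list cannot tell apart. The lists carry 1 score per cluster, read from its values as a log2 ratio of ChIP to input reads, and fold enrichment below is 2 raised to that score. Sequencing depth is unknown, the inputs have no list of their own, and with 1 ChIP group of 2 replicates no difference here was tested.

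H1 binds the nucleosome at the point where DNA enters and leaves it, and with it holds the neighbouring stretch of linker DNA. It is an abundant structural protein of chromatin, known for compacting nucleosome arrays and, in Drosophila, for its part in silent chromatin and in the structure of polytene chromosomes. A cluster is a stretch that the authors called as enriched, and the lists hold no value for the space between clusters, so H1 outside clusters was not measured here.

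In the combined list H1 clusters were dense along the 3R interior, with 130 per Mb covering 24.4% of its 25.9 Mb. The replicates covered much less, with 4.59% in replicate 1 and 3.25% in replicate 2, a mean of 3.92% ± 0.951 (SD, n = 2). Replicate 1 had 27.7 clusters per Mb and replicate 2 had 19.1. Every one of 25 blocks of 1 Mb, from 1 to 26 Mb, held some H1 cluster in each list. The stretch from 26 to 26.9 Mb lay outside these blocks. The lowest block was that from 5 to 6 Mb, with 7.90% in the combined list, 2.12% in replicate 1 and 0.232% in replicate 2. The same block was thus the least covered in all of the lists, of which the combined list was made from the replicates. The most covered block of the combined list and of replicate 1 lay from 23 to 24 Mb, with 36.7% and 9.85%. In replicate 2 the most covered block lay from 12 to 13 Mb, with 7.68%, and the block from 23 to 24 Mb had 5.66%.

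**Figure D1:**
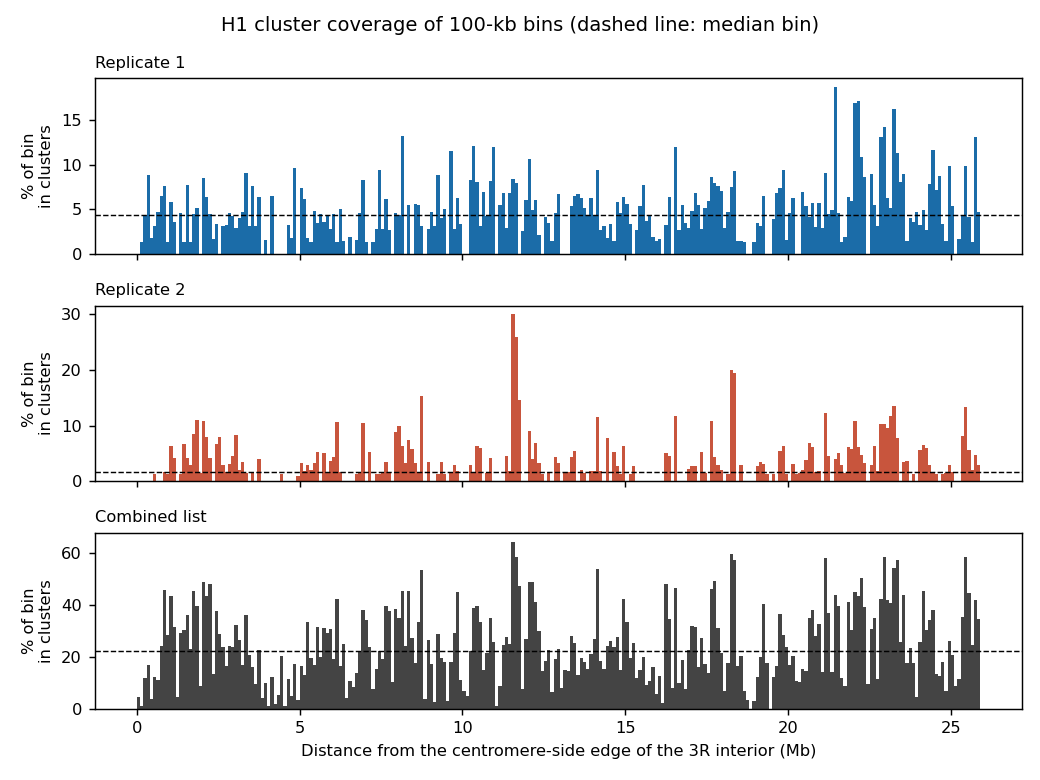
Share of each 100-kb bin that lies in H1 clusters (vertical axis, percent) against the distance of the bin from the centromere-side edge of the 3R interior (horizontal axis, Mb), for replicate 1, replicate 2 and the combined list; each bar is 1 of 259 bins and the vertical scales differ. Coverage is uneven in each list, and replicate 2 has its tallest bars, of 29.9% and 25.9%, in neighbouring bins.

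Most H1 clusters of the interior were short. Median lengths were 1552.5 bp in the combined list, whose shortest cluster had 1001 bp, and 1520 and 1551 bp in replicates 1 and 2, which both began at 1301 bp. Clusters of at most 2000 bp made up 86.9% of replicate 1 and 82.2% of replicate 2. In the combined list 35.0% of the clusters were shorter than the 1301 bp at which the replicate lists began, and these held 20.7% of the covered bases. At the other end, 155 combined clusters (4.62%) exceeded 4000 bp and held 12.8% of the covered bases. The longest combined cluster measured 9834 bp, and the longest of replicates 1 and 2 measured 6428 and 4335 bp.

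Enrichment over input was low and lay in a narrow range. The middle 50% of clusters ran from 1.51- to 1.63-fold in replicate 1, from 1.46- to 1.56-fold in replicate 2 and from 1.31- to 1.37-fold in the combined list. The lists were scored separately, so their levels are given side by side and not compared. No replicate cluster of the 3R interior reached a score of 1, a 2-fold enrichment, in either replicate. The highest was 1.91-fold in replicate 1 and 1.80-fold in replicate 2. Scores of 1 or more were also rare in the interiors of 2L and 3L, cut by the same rule, where replicate 1 had 2 of 442 and 1 of 485 clusters and replicate 2 had 1 of 446 and 2 of 401. On X, 11 of 111 clusters of replicate 1 (9.91%) and 1 of 80 of replicate 2 reached it. On the heterochromatic and unplaced sequences, which lie outside the main arms, 17.9% of clusters in replicate 1 and 15.2% in replicate 2 reached it. Longer clusters tended to have higher scores in the replicates, with Spearman's rho of 0.25 over 718 clusters of replicate 1 and 0.33 over 495 clusters of replicate 2. In the combined list, which also holds clusters shorter than 1301 bp, rho was 0.018 over 3358 clusters. Its median score was 0.432 up to 1300 bp and 0.403 at 1301 to 2000 bp. It was 0.439 at 2001 to 4000 bp and 0.453 above 4000 bp. These are descriptions across clusters that share a library and are not independent.

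**Figure D2:**
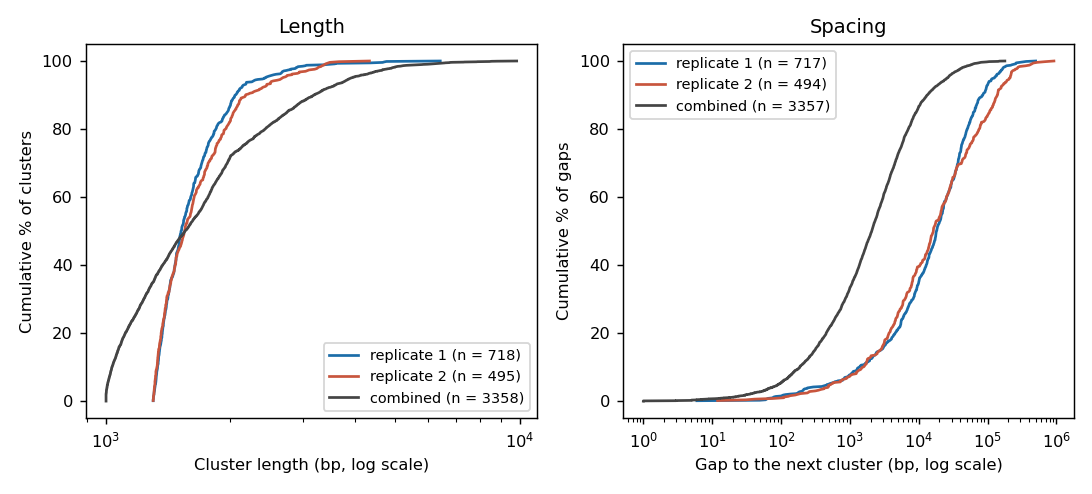
Cumulative percent of H1 clusters by length (left, bp, log axis) and of gaps between neighbouring clusters (right, bp, log axis; a gap of 0 is drawn at 1) in the 3R interior for replicate 1, replicate 2 and the combined list. The replicate curves nearly coincide for length, with medians of 1520 and 1551 bp, and the combined list has both shorter and longer clusters and much shorter gaps.

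Clusters were unevenly spaced, with many short gaps and a few very long ones. In the combined list the median gap, from the end of a cluster to the start of the next, was 2076 bp and the mean was 5834 bp. Gaps under 1 kb were 33.3% of all gaps, and 5.39% were under 100 bp. Gaps over 10 kb were 13.4% of all gaps and held 48.0% of the bases of the window. Replicate 1 had a median gap of 18091 bp and replicate 2 one of 16326 bp. Their means of 34189 and 49436 bp were again well above the medians. Gaps over 100 kb were 7.11% of the gaps of replicate 1, holding 33.0% of the window, and 16.2% of those of replicate 2, holding 61.6%.

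When combined clusters less than or equal to 1 kb apart were joined, 1799 of 3358 (53.6%) fell into 682 groups of 2 or more and the other 1559 stood alone. The replicates had 14.5% and 13.9% of their clusters in such groups, and no group of either had more than 3 clusters. In the combined list 46 groups had at least 5 clusters and 65 spanned at least 10 kb. The longest group ran from 26460202 to 26488884, a span of 28683 bp with 9 clusters that filled 92.3% of it. Clusters of replicate 1 covered 13.1% of that span and clusters of replicate 2 covered 31.3%. The group with the most clusters had 11 and ran from 12998870 to 13024371, with 5.36% covered in replicate 1 and 16.0% in replicate 2. Another, from 3038675 to 3061081, had 4 clusters of replicate 2, covering 34.6%, and none of replicate 1.

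The longest single clusters were of modest enrichment. The 10 longest of the combined list measured 7791 to 9834 bp at 1.34- to 1.46-fold. Of them, 7 lay in the distal of 3 equal parts of the interior, which held 1166 of all 3358 combined clusters. Of the 10, 8 overlapped clusters of both replicates and none was without a replicate cluster. The combined list was made from the same replicates, so such overlap is not independent evidence. Among all 155 combined clusters over 4000 bp, 31.0% met both replicates and 88.4% met either, and a longer cluster has more room to be met. The longest, at 19310220 to 19320053, was covered to 27.2% by 1 cluster of replicate 1 and to 38.3% by 2 clusters of replicate 2. The cluster from 23842256 to 23851080, with 8825 bp and 1.46-fold enrichment, had the highest replicate 1 coverage of the 10, at 72.8%. Replicate 2 covered 47.9% of it. Its replicate 1 cluster, at 23843353 to 23849780, was the longest of that replicate in the interior. The remaining 2 of the 10, from 23931578 to 23940035 and from 12726975 to 12734869, had no cluster of replicate 1 and were covered to 40.2% and 52.7% in replicate 2. The longest cluster of replicate 2, at 2761984 to 2766318 (4335 bp, 1.53-fold), had no base in a replicate 1 cluster.

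The 10 highest-scoring clusters of the combined list ran from 1.55- to 6.27-fold. Of these, 7 were short, at 1001 to 1132 bp, and overlapped no cluster of either replicate, a share close to the 69.6% of all combined clusters of the interior that met neither. The leading cluster, at 2563992 to 2565018, had 6.27-fold enrichment. Next came 13407521 to 13408622 at 2.77-fold and 7849813 to 7850843 at 2.22-fold, and no other combined cluster of the interior reached 2-fold. In lowest terms and up to the list's scaling constant of 1.14, those scores stand for ratios of 11 to 2, 17 to 7 and 39 to 20. The median second number over the interior was 202.5. These ratios are not read counts, since shared factors can hide larger ones, and the part of low read numbers in the high scores was not tested. The last 2 of the 10, from 19321764 to 19324768 at 1.57-fold and from 12610570 to 12615643 at 1.55-fold, measured 3005 and 5074 bp and were met by both replicates. Replicate 1 covered 48.9% and 30.6% of them and replicate 2 covered 73.6% and 74.1%.

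**Figure D3:**
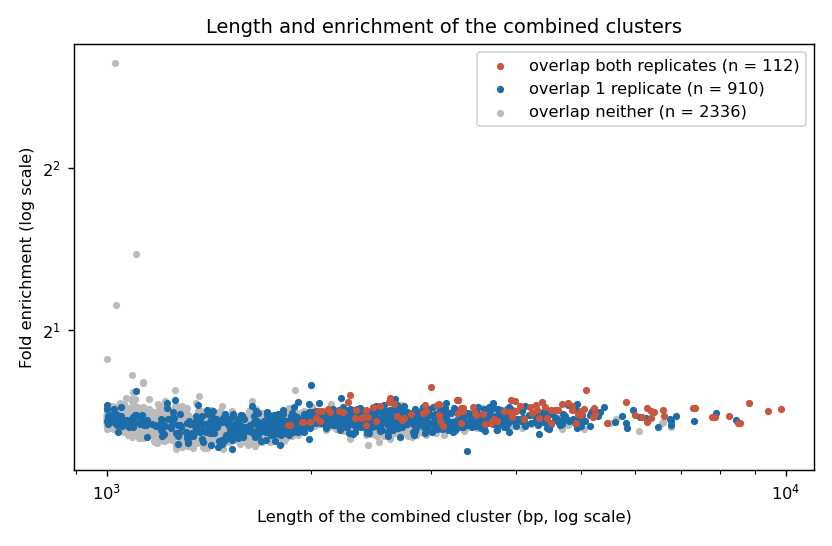
Fold enrichment (vertical axis, log scale) against length (horizontal axis, bp, log scale) of the 3358 combined clusters of the 3R interior, coloured by the number of replicates they overlap. Clusters that overlap both replicates lie towards greater length, with a median of 3799.5 bp, and the few points above 2-fold are short and overlap neither.

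The replicates were compared cluster by cluster inside the window. Of 718 clusters of replicate 1, 108 overlapped a cluster of replicate 2 by at least 1 bp (15.0%, 95% Wilson interval 12.6 to 17.8), against 13.8% over all main arms. Of 495 clusters of replicate 2, 109 overlapped replicate 1 (22.0%, 18.6 to 25.9), against 17.5% over all main arms. The intervals cover counting error only. The bases in both lists came to 115.7 kb, which is 9.73% of the covered bases of replicate 1 and 13.8% of those of replicate 2. They made up 0.447% of the window, where the product of the coverages of the replicates is 0.149%. The difference from that product was not tested. Overlapping clusters had median lengths of 1588.5 bp in replicate 1 and 1560 bp in replicate 2, and clusters without overlap had 1509 and 1546 bp. Across the 113 overlapping pairs the scores of the replicates were nearly unrelated, with Spearman's rho of 0.049 and Pearson's r of 0.097, given as descriptions.

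Among those pairs, the one with the most bases in common lay at 23844496 to 23846841, where 2346 bp were shared at 1.64-fold in replicate 1 and 1.63-fold in replicate 2. The next separate pair shared 2090 bp from 12512012 to 12514101, at 1.69-fold in replicate 1 and 1.54-fold in replicate 2, inside a combined cluster of 1.47-fold. Of the 10 leading pairs, 3 shared bases between 23.2 and 23.9 Mb, at 23214627 to 23216206, 23844496 to 23846841 and 23847938 to 23849780. Those starting at 23844496 and 23847938 lay in the same replicate 1 cluster and the same combined cluster. Another 3 pairs lay between 12.5 and 13.4 Mb, starting at 12512012, 13093979 and 13395107. The remaining 4 lay at 26854998 to 26856770, 10622672 to 10624416, 6496832 to 6498534 and 3957596 to 3959237. The shared bases of 112 of the 113 pairs lay wholly inside a combined cluster, and both clusters of the pair did in 81. The combined list was made from the same replicates and is not independent of them.

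The combined list overlapped, by at least 1 bp, 94.0% of the replicate 1 clusters of the interior and 97.8% of those of replicate 2. Over all main arms these shares were 93.5% and 97.3%. Most combined clusters had no counterpart in either replicate. Clusters of both replicates were met by 112 of 3358 combined clusters (3.34%, against 2.84% over all main arms), 1022 (30.4%, against 27.9%) met at least 1 of them, and 2336 (69.6%, against 72.1%) met neither. Those that met both had a median length of 3799.5 bp and 1.41-fold enrichment, and those that met neither had 1335 bp and 1.34-fold. The share that met either replicate was 88.4% above 4000 bp, 55.9% at 2001 to 3000 bp and 7.16% at 1001 to 1300 bp. A longer cluster has more room to be met, and the part of length alone was not tested.

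**Figure D4:**
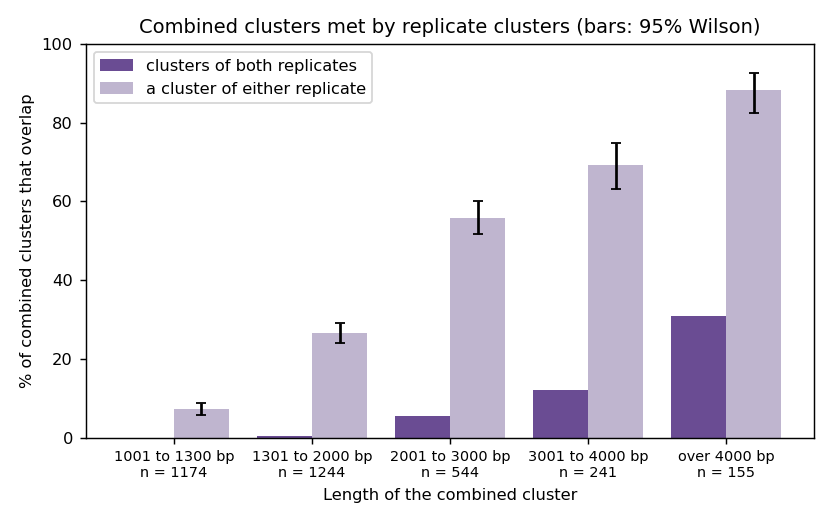
Percent of combined clusters of the 3R interior that overlap clusters of both replicates (dark bars) or of either replicate (light bars, with 95% Wilson intervals for counting error), by length of the combined cluster, with n clusters under each class. Both shares are higher in each longer class, with 31.0% meeting both replicates above 4000 bp and none at 1001 to 1300 bp.

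In 100-kb bins, the coverage of the combined list ran from 0% to 64.6% with a median of 22.4%. The middle 50% of the 259 bins had 13.3% to 34.6%, and 12 bins exceeded 50%. Replicate 1 had a median bin of 4.37% and a highest of 18.7%, and replicate 2 had 1.77% and 29.9%. The combined list left 2 bins without a cluster, replicate 1 left 38 (14.7%) and replicate 2 left 84 (32.4%). Coverage of neighbouring bins was related with rho of 0.34 in the combined list, 0.14 in replicate 1 and 0.28 in replicate 2, over 258 pairs of bins and as a description. At a distance of 0.5 Mb rho was between 0.059 and 0.098, and at 1 Mb it was between -0.043 and 0.0060, in the 3 lists.

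The 10 densest bins of the combined list had 54.0% to 64.6%, and 7 of them lay in the distal part. They were chosen in a list made from the replicates, so a high coverage in the replicates is built in. Of the 10, 7 were among the densest 10% of bins of replicate 1, 9 among those of replicate 2 and 6 among both. Their coverage ran from 7.56% to 16.3% in replicate 1 and from 7.79% to 29.9% in replicate 2. The densest, from 12.5 to 12.6 Mb, held 28 combined clusters, 5 of replicate 1 and 14 of replicate 2. Replicate 2 covered 29.9% of it, its highest bin, and replicate 1 covered 8.44%, which ranked 34th of 259. The next bin, from 12.6 to 12.7 Mb, had 25.9% in replicate 2 and 8.01% in replicate 1. A similar gap between the replicates was seen from 19.2 to 19.4 Mb, where replicate 2 covered 19.9% and 19.4% of the bins and replicate 1 covered 7.56% and 9.33%.

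Among the 65 bins with the highest combined coverage, of 34.6% or more, 7 runs of at least 3 neighbouring bins marked the dense stretches. The longest run was 600 kb, from 23.8 to 24.4 Mb, with 49.3% in the combined list. It was covered to 11.1% by 37 clusters of replicate 1 and to 10.5% by 36 clusters of replicate 2, with 13.8 kb in both. Near it, from 23.0 to 23.4 Mb, replicate 1 had 13.4% and replicate 2 had 6.23%. The run from 12.5 to 12.8 Mb had the highest mean of the 7, at 56.8%. There replicate 2 had 23.5% in 36 clusters and replicate 1 had 5.48% in 10 clusters. Nearer the centromere, the run from 3.0 to 3.3 Mb had like coverage in the replicates, with 6.47% in replicate 1 and 7.61% in replicate 2. Of its bases, 0.954 kb was in both lists, so a like coverage there did not rest on the same bases.

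The sparsest bins held few or no clusters in each replicate. The 10 bins of lowest combined coverage had 0% to 2.85%. All 10 were empty in replicate 2, against 32.4% of all bins, and 7 were empty in replicate 1, against 14.7%. They were chosen in a list made from the replicates, so a low coverage in the replicates is built in. The same holds for the runs of low bins below. The pair with no combined cluster at all lay from 19.8 to 19.9 Mb and from 20.4 to 20.5 Mb, and both were empty in each replicate as well. Among the 65 bins with the lowest combined coverage, of 13.3% or less, the longest run was 600 kb, from 4.8 to 5.4 Mb, with 5.85% in the combined list, 1.34% in replicate 1 and no cluster of replicate 2. The next, from 19.6 to 20.1 Mb, had 5.08%, 1.25% and 0.568% in the same order of lists, and it began 200 kb beyond the dense bins at 19.2 to 19.4 Mb. Of the 38 bins empty in replicate 1, 23 were empty in replicate 2 (60.5%, against 32.4% of all bins). As a share of the 84 bins empty in replicate 2 these 23 were 27.4%, against 14.7% of all bins empty in replicate 1.

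The longest gap between combined clusters ran from 20352770 to 20531029, over 178.3 kb, and held 1 cluster of replicate 2. The 9 longest all exceeded 100 kb, and the next, of 97.2 kb, lay from 2190564 to 2287753. Of the 10 gaps, 5 had no cluster of either replicate, namely those starting at 19793651, 12001005, 5325381, 8221278 and 4997367. The gaps were chosen in a list made from the replicates, so a low number of replicate clusters in them is built in. The longest stretch without a replicate 2 cluster, picked out after its length was seen, was 920 kb from 16297722 to 17217736. Replicate 1 had 19 clusters there, covering 3.32%, and the combined list had 67, covering 11.6%. The corresponding stretch of replicate 1, of 499.6 kb from 5128453 to 5628021, held 1 cluster of replicate 2 and 20 combined clusters.

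Dense bins of a replicate were then read in the other, which had no part in choosing them. The 26 densest bins of replicate 1, with at least 9.00%, averaged 6.76% in replicate 2, and the other 233 bins averaged 2.86%. Only 2 of the 26 were empty in replicate 2, against 82 of the other 233. The 26 densest bins of replicate 2, with at least 8.27%, averaged 8.00% in replicate 1, and the other 233 averaged 4.21%. The sets of 26 had 10 bins in common, 38.5% of each, where each set is 10% of all bins. Over all 259 bins rho between the replicates was 0.40 and Pearson's r was 0.38, given as a description of bins that share libraries, base composition and mappability. In the interiors of 2L, 3L and X the same rho was 0.26, 0.30 and 0.27 over 210, 225 and 204 bins, and Pearson's r was 0.33, 0.38 and 0.29.

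**Figure D5:**
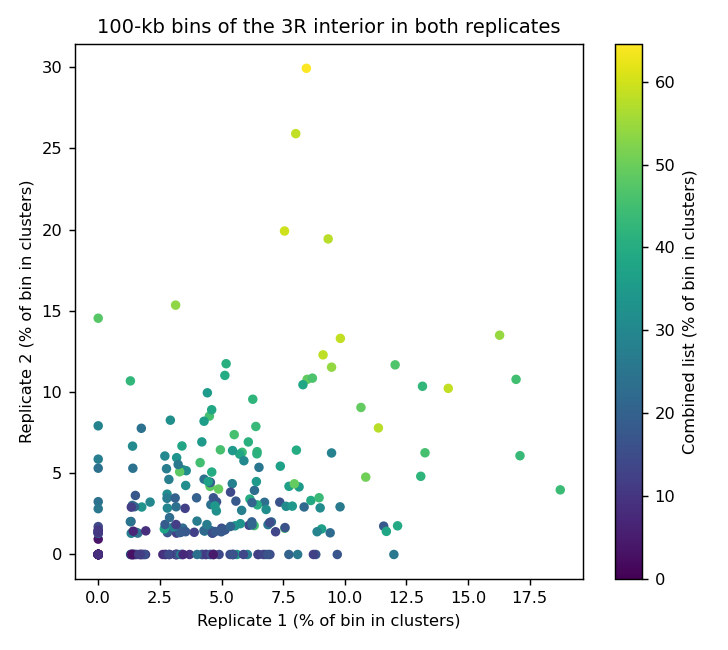
Coverage of the 259 bins of 100 kb in replicate 2 (vertical axis, percent) against replicate 1 (horizontal axis, percent), coloured by coverage in the combined list. The relation is loose, with 23 bins at 0 in both replicates and 4 bins near or above 19% in replicate 2 that lie between 7.56% and 9.33% in replicate 1.

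The interior was divided into 3 parts of 8.63 Mb, and in both replicates coverage was higher in the distal part than in the part nearest the centromere. The distal part had 27.3% in the combined list, 5.71% in replicate 1 and 3.97% in replicate 2. The middle part had 23.4%, 4.50% and 2.97%, and the proximal part 22.3%, 3.56% and 2.80%, in the same order of lists. The difference between the distal and the proximal part was 2.16 percentage points in replicate 1 and 1.16 in replicate 2, a mean of 1.66 ± 0.703 (SD, n = 2). With 2 equal parts in place of 3, the distal minus proximal difference was smaller, at 1.19 points in replicate 1 and 0.205 in replicate 2, a mean of 0.699. An exact test over 2 replicates could not reach p = 0.05, so none was made. Clusters were also more numerous in the distal part, with 290 against 193 in the proximal part of replicate 1 and 203 against 145 in replicate 2. Their median length in the replicates differed little, at 1525.5 against 1498 bp and 1536 against 1558 bp. In the combined list numbers differed less, at 1166 against 1083. Its distal clusters were longer, with a median of 1646 against 1467 bp, and closer together, with a median gap of 1766 against 2228 bp. Over 25 blocks of 1 Mb, rho with distance from the centromere was 0.55 in replicate 1 and 0.27 in replicate 2, as a description. The blocks ended at 26 Mb and left out the most distal stretch of the window.

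The 3R interior was set beside those of 2L, 3L and X, and 2R was not compared. Its coverage was 24.4% in the combined list, against 24.1% on 2L and 23.2% on 3L. Its median gap was 2076 bp, against 2059 bp on 2L and 2247 bp on 3L, and its median fold was 1.34, as on 2L and 3L. In replicate 1 the 3R interior had 4.59%, against 3.54% on 2L and on 3L. In replicate 2 it had 3.25%, against 3.54% on 2L and 3.02% on 3L. The ratio of 3R to 2L and 3L together was 1.30 in replicate 1 and 0.993 in replicate 2, and its mean of 1.14 ± 0.215 (SD, n = 2) was no further from 1 than the spread between the replicates. The X interior was sparser in each list, and the coverage of 3R stood to that of X as 3.36 in the combined list, 5.49 in replicate 1 and 5.21 in replicate 2. Median fold ran the other way, at 1.57 on 3R and 1.82 on X in replicate 1 and 1.51 on 3R and 1.67 on X in replicate 2. None of these differences between arms was tested.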

How the data were processed

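H1 ChIP and input DNA of Oregon-R head nuclei were sequenced, with 2 samples of each. Per the submitters' processing notes, alignment used Bowtie 0.12.7. Enriched regions were deposited by the authors as 1 list per ChIP sample and 1 for the replicate set, on FlyBase release 5, per the file headers. For the caller, its threshold and the way replicates were combined, a statement was not given in the sources used here. The score of each region, which the authors deposited without a name, was read as a log2 ratio, since 2 raised to it was a whole-number ratio times 1 constant per list for 99.96%, 99.97% and 99.93% of regions of replicate 1, replicate 2 and the combined list (divisors up to 2000, tolerance 1e-09).

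The window, bins of 100 kb, gaps and overlaps of at least 1 bp were computed in Python 3.11.15 with numpy 2.4.6 and scipy 1.17.1. Coverage is the share of bases in clusters, with unalignable bases counted. Regions named are the 10 longest and 10 highest-scoring combined clusters, the 10 longest gaps, the 10 densest and 10 lowest bins, the 10 replicate pairs with most shared bases and the longest cluster of each replicate. Joined groups, runs of bins, length steps and the longest replicate gaps were added later. The window, lists and tests were chosen with earlier results of these data known. Depth is unknown, so no interval needing it is given. Overlap, bin and gap routines were tested on simulated lists. No genome or gene table of release 5 was used, so no sequence is printed and no region, the Hox complexes included, is placed on genes. Alternatives were score and length cutoffs, other overlaps, other bins and each replicate alone.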

Additional observations from a re-analysis of the deposited data

How the results depend on the processing

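Of 39 alternative values for 12 results, 11 stayed within their error or, for a count, within 1.5 times, 19 moved further and 1 changed direction. The other 8, for combined coverage, the median gap and rho, have no error of their own, and a change in the second decimal was counted. With 2 replicates, each alone always lies within the SD of their mean. Leave-one-out values of replicate coverage, the distal minus proximal difference and the ratio of 3R to 2L and 3L therefore could not be counted as moved further. Cutoffs shrink the lists by construction. The score cutoff was taken over each whole list, other arms and unplaced sequences included, so the 3R interior need not keep 50% of its clusters. With the highest-scoring 50% of each list, the mean number of replicate clusters was 244.5 (606.5 in full), their coverage 1.72% (3.92%), combined clusters 1255 (3358), combined coverage 9.84% (24.4%), the median gap 7607.5 bp (2076), combined clusters in either replicate 22.8% (30.4%), the overlapping shares of replicates 1 and 2 6.08% and 12.5% (15.0% and 22.0%), rho of bins 0.33 (0.40) and bins with no replicate cluster 26.6% (8.88%). Combined clusters of at least 1301 bp numbered 2184, covered 19.3%, had a median gap of 3484 bp and met a replicate in 42.9%. With 50% of a cluster covered, the shares were 23.4% of the combined list and 9.47% and 14.7% of replicates 1 and 2, and with 50% of both clusters 22.0%, 8.77% and 12.7%. In bins of 50 kb, 250 kb and shifted 100 kb, rho was 0.33, 0.43 and 0.37, and bins of 50 kb and 250 kb were empty in 22.6% and 0% of cases. The distal minus proximal difference was 4.98 points in the combined list and 0.699 between 2 parts of equal length (1.66 with 3 parts).

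Leaving out a replicate gave 495 to 718 clusters, coverage of 3.25% to 4.59%, a distal minus proximal difference of 1.16 to 2.16 points and a ratio of 3R to 2L and 3L of 0.993 to 1.30. That ratio turned below 1 without replicate 1, at 0.993, and the cause was not tested. No paired analysis was possible because each pair that shares a number is a ChIP and an input sample, and the input samples have no list of their own. Depth is unknown and limits which clusters could be called.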

Other observations

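The lengths of the combined clusters of the 3R interior showed a step at 2000 bp. There were 173 clusters of 1901 to 2000 bp and 65 of 2001 to 2100 bp. Their median scores were 0.42 and 0.45. Median scores were 0.44 at 1001 to 1100 bp and 0.39 at 1501 to 1600 bp. The classes of 1901 to 2000 bp and 2001 to 2100 bp held 121 and 74 clusters in the 2L interior and 162 and 64 in the 3L interior. On 3R, 1 further combined cluster crossed an edge of the window and was not counted.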
